A study of Mus musculus with 38 samples.

Results

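Expression of 4 receptor genes was read in mouse bone marrow: the chemokine receptors Ccr1, Ccr2 and Cx3cr1, which monocytes carry, and Cxcr4, the receptor that holds blood-forming cells in marrow. The genes were chosen by symbol, and they are 4 of 47729 genes in the whole marrow tables and 4 of 46679 in the tables of sorted precursors. All mice were female C57BL/6 animals of 6 to 7 weeks. They were left untreated, or were given zoledronic acid (ZA, a bisphosphonate that blocks bone-resorbing osteoclasts) at 100 µg/kg, recombinant human G-CSF (a cytokine that drives neutrophil production and mobilises cells from marrow) at 50 µg/kg on each of 3 days, or both, with G-CSF starting 2 days after ZA. Whole marrow gave 2 untreated, 3 G-CSF, 2 ZA and 2 combined libraries. A first sequencing run, called run 1 below, gave 8 libraries of sorted cells (1 untreated, 1 ZA, 3 G-CSF and 3 combined) and 3 of whole marrow (untreated, ZA and G-CSF). The sorted cells, which the labels call osteoclast precursors, were depleted of lineage antigens (TER119, CD45R, CD11b, CD3 and Ly-6G/Ly-6C) and then sorted for CD115, the product of Csf1r. Replicates are numbered in the labels without a statement that each was a separate mouse, so the tests measure the spread between these samples.

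Chemokine receptors are G protein-coupled receptors on the cell surface that steer cells along gradients of small secreted ligands. Ccr2 binds Ccl2 and Ccl7 and is needed for classical monocytes to leave marrow for blood. Cx3cr1 binds Cx3cl1 and is high on patrolling monocytes and on monocyte and dendritic progenitors. Ccr1 binds several CC chemokines, Ccl3, Ccl5, Ccl6 and Ccl9 among them, and is carried by neutrophils as well as monocytes. Cxcr4 binds Cxcl12 from stromal cells, and release of cells by G-CSF is known to involve the loss of that signal.

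In mm10, Ccr1 (ENSMUSG00000025804) lies at chr9:123962124-123968692 on the minus strand with 2 exons, and Ccr2 (ENSMUSG00000049103) at chr9:124101950-124113557 on the plus strand. Both belong to a cluster of receptor genes in which Ccr9, Xcr1, Ccr1, Ccr3 and Ccr2 follow in that order. Cx3cr1 (ENSMUSG00000052336, chr9:119901616-120069879, minus strand) is outside that cluster, and its exons overlap Wdr48 and Gm33858 on the opposite strand. Whether the library kit kept strand is not stated, so reads within those overlaps may not be assigned to Cx3cr1 with certainty. Whether exons of Wdr48 and Gm33858 reach the overlaps was not checked. Cxcr4 (ENSMUSG00000045382) lies at chr1:128588199-128592293 on the minus strand with 2 exons. Few transcript words were shared with other genes: 0.642% of the 31-base words in Ccr1 transcripts, 3.41% in Ccr2, 1.75% in Cx3cr1 and 0% in Cxcr4 occur in another gene. The RefSeq promoter windows below (GRCm38.p6, 250 bases before to 50 after the start, read along the gene's strand) show the neighbours Ccr1 and Ccr2, which differ in opposite directions between precursors and whole marrow, and Cxcr4, the highest of the 4 in marrow. Capitals mark GAGGAA, the core that the myeloid factor PU.1 binds.
Ccr1: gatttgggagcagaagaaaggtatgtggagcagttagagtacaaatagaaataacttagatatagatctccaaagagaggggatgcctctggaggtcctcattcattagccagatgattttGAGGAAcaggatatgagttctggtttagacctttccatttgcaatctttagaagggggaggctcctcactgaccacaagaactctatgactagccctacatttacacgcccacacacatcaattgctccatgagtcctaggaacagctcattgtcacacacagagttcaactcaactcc
Ccr2: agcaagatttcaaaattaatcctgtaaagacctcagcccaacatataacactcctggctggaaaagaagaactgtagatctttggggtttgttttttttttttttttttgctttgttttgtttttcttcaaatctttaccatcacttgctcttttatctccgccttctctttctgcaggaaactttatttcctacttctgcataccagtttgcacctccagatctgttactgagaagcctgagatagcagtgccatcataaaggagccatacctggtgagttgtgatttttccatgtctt
Cxcr4: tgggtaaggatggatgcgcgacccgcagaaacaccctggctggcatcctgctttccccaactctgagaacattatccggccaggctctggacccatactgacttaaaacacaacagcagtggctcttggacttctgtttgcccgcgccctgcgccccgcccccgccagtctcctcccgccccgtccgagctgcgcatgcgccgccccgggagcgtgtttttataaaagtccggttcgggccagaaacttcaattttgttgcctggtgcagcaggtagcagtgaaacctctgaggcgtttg
The windows are chr9:123968643-123968942, chr9:124101933-124102232 and chr1:128592250-128592549. Ccr1 held 1 GAGGAA, and Ccr2 and Cxcr4 held none on either strand, while 28.3% of 32851 promoter windows of this length held at least 1. Also searched on both strands were the C/EBP palindrome TTGCGCAA and the KLF box CCACCC, which none of these 3 windows held (0.183% and 31.5% of all windows did). The windows of Ccr1 and Ccr2 had a GC content of 44.0% and 38.0% with 1 CpG each. That of Cxcr4 had 59.3% with 20 CpG, and the median over all windows was 52.7% with 7 CpG.

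Library depth was 6.24 to 16.2 M (mega) estimated counts in whole marrow and 21.0 to 33.2 M in run 1 precursors, so that a count of 0, which allows up to 3 counts, limited a gene to 0.186 to 0.481 and 0.0904 to 0.143 CPM (counts scaled by the library total). These limits cover counting error only. The 3 marrow libraries of run 1 are libraries of the whole marrow table: untreated replicate 2, G-CSF replicate 2 and ZA replicate 2. Their totals over all genes of each table were within 1.56 counts, so the tables do not replicate each other. Small RNA genes took 39.95% of the TPM (transcript levels per length) of untreated replicate 1 and 7.96% to 15.2% in the other marrow libraries. In run 1 precursors they took 18.9% to 43.7%, above all run 1 marrow libraries (7.97% to 15.2%). This difference enters TPM comparisons between the sources. The 5 marrow libraries given G-CSF also stood apart in genes that were on or off: 50 genes had at least 1 TPM in all 5 and at most 0.1 in the other 4, and 11 showed the reverse. One of the 11, the villin-like gene Vill, had 33.7 to 67.2 CPM in all run 1 precursors, those given G-CSF included. Genetic background and treatment cannot be told apart in marrow comparisons with G-CSF. The G-CSF marrow library of run 1 carries this limit into its comparisons with precursors. The sort was checked by its own markers: Csf1r had 405 to 475 CPM in run 1 precursors and 93.8 to 168 in run 1 marrow, and the neutrophil antigen Ly6g had 0.627 to 5.40 against 145 to 353. Ly6c2, which encodes a lineage antigen of the depletion, was higher in the sorted cells (1567 to 2053 CPM against 79.4 to 626). A second run had libraries whose Ly6g went against their labels and is used only as an alternative.

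The order of the 4 receptors, compared per length in TPM, was fixed in marrow and different in precursors. Whole marrow had Cxcr4 above Ccr2, Ccr2 above Ccr1 and Ccr1 above Cx3cr1 in 9 of 9 libraries. The TPM ranges there were 44.3 to 107 for Cxcr4, 7.74 to 23.8 for Ccr2, 5.73 to 13.4 for Ccr1 and 0.741 to 4.93 for Cx3cr1. Ranges of Ccr2 and Ccr1 overlapped across libraries, although Ccr2 was 1.07 to 1.77 times Ccr1 within each library. In run 1 precursors Ccr1 was the lowest of the 4 in all 8 libraries. The ranges were 113 to 226 TPM for Cxcr4, 102 to 213 for Ccr2, 14.0 to 31.3 for Cx3cr1 and 3.72 to 10.5 for Ccr1. Cxcr4 and Ccr2 did not separate there, with a ratio of 0.968 to 1.25 and Cxcr4 higher in 7 of 8 libraries. The ratio of Ccr2 to Ccr1 was 20.2 to 27.5 in precursors and that of Cxcr4 to Ccr2 was 3.25 to 7.77 in whole marrow.

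Treatments were compared in whole marrow in pairs, as the series design states, on counts scaled by TMM (a scaling by the bulk of genes) and tested with edgeR over all genes. In whole marrow a lower level can mean fewer cells of a type or less RNA per cell, which cannot be told apart. Cx3cr1 had the largest difference of the 4 with G-CSF. Its level was 28.5 and 44.0 CPM in the untreated libraries, 6.17, 8.23 and 6.71 with G-CSF, 25.1 and 27.9 with ZA, and 12.7 and 9.36 with both. Every library given G-CSF was below every library that was not. The share of all genes with this split was not counted, nor were those for the orders of libraries given below for Ccr2, Ccr1 and Cxcr4. Separation is common in small groups: 17.7% of all genes had both ZA libraries below both untreated libraries. These orders are therefore descriptions and not evidence beyond the tests. Cx3cr1 fell by 2.36 ± 0.25 (SE) on the log2 scale with G-CSF, 5.14-fold (adjusted p = 0.000489). With both agents it fell by 1.72 ± 0.28 against untreated (adjusted p = 0.00742, and 0.0648 without combined replicate 3). Against ZA alone it fell by 1.26 ± 0.28 with both (adjusted p = 0.0358). That last call was lost in 6 of the 9 fits that left out 1 library (combined replicate 1 or 3, G-CSF replicate 1 or 2, or either ZA library; adjusted p = 0.0540 to 0.245).

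Ccr2, the receptor of monocyte exit, fell with G-CSF and with the combination. It had 139 and 189 CPM in untreated marrow, 83.6, 108 and 81.2 with G-CSF, 116 and 130 with ZA, and 74.0 and 80.3 with both. Both untreated libraries were above all others, and those with both agents were lowest. The log2 change was −0.85 ± 0.18 with G-CSF (adjusted p = 0.0178), a 1.80-fold fall. This call was lost when untreated replicate 2 (−0.61, adjusted p = 0.134) or G-CSF replicate 1 (−0.79, adjusted p = 0.0636) was left out. With both agents it was −1.09 ± 0.21 (adjusted p = 0.0150), a call lost when combined replicate 1 (adjusted p = 0.126), combined replicate 3 (0.0777) or untreated replicate 2 (0.0691) was left out, and in a fit of those groups alone (0.0513).

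Ccr1 had 80.6 and 83.2 CPM in untreated marrow, 61.1, 67.4 and 49.6 with G-CSF, 75.7 and 66.5 with ZA, and 44.8 and 47.5 with both. Its combined libraries were the lowest, under all G-CSF libraries. Ccr1 fell with both agents against untreated, by 0.83 ± 0.18 on the log2 scale (adjusted p = 0.0277), or 1.78-fold. The call was lost without either untreated library, either combined library or G-CSF replicate 1 (adjusted p = 0.0507 to 0.184). With G-CSF alone the change was −0.46 ± 0.17 and did not pass (adjusted p = 0.0979).

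Cxcr4, the retention receptor, had 332 and 266 CPM in untreated marrow, 202, 197 and 187 with G-CSF, 227 and 176 with ZA, and 240 and 202 with both. Each treated library was below both untreated ones, and the treated groups lay close together. It fell by 0.61 ± 0.16 on the log2 scale with G-CSF (adjusted p = 0.0418), 1.53-fold. That call held only with all libraries or without 1 ZA library, and leaving out any of the other 7 gave adjusted p = 0.0589 to 0.194 (−0.43 without untreated replicate 1). With ZA the change was −0.57 ± 0.18 (adjusted p = 0.435) and with both −0.44 ± 0.18 (adjusted p = 0.175).

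**Figure D1:**
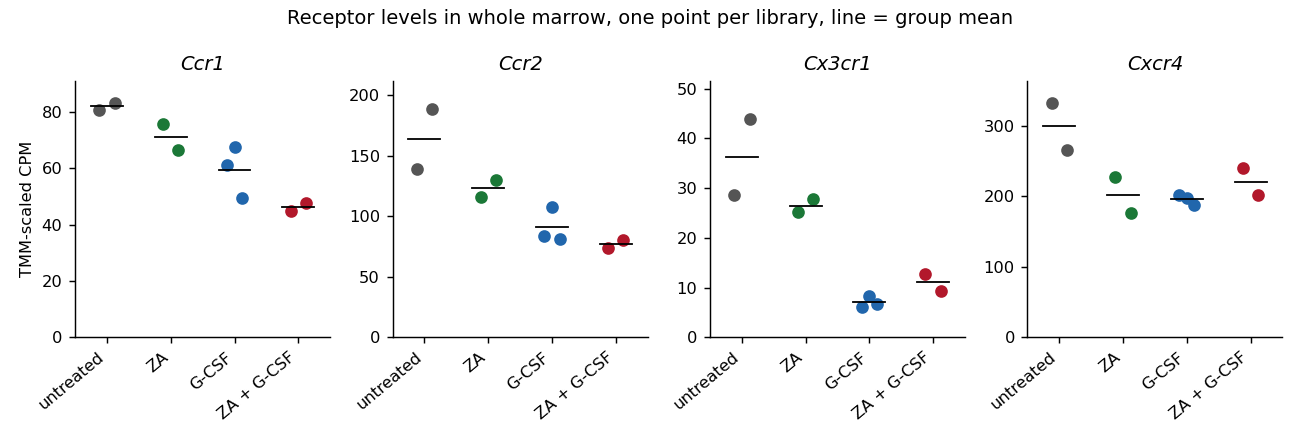
TMM-scaled CPM (y axis, from 0) of each receptor in the 9 whole marrow libraries; points are libraries, lines are group means. Cx3cr1 lies between 6.17 and 12.7 in the 5 libraries given G-CSF and between 25.1 and 44.0 in the other 4, while Cxcr4 lies between 176 and 240 in all treated libraries.

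Counted together, 3 of the 4 receptors were called lower with G-CSF (Cx3cr1, Ccr2 and Cxcr4), where edgeR called 11.8% of 14737 genes (727 higher and 1019 lower, 6.91% lower). With both agents 3 of 4 were lower (Cx3cr1, Ccr2 and Ccr1), against 7.72% of all genes (467 higher and 670 lower, 4.55% lower). The scale bears on these directions. On log2(TPM + 1), with limma, the median of all genes was 0.52 with G-CSF and 0.79 with both, and the calls were 2938 higher and 168 lower, and 5948 and 162. None of the 4 was called on that scale. Ccr1 was at 0.33 and Cxcr4 at 0.25 with G-CSF, turned in sign, with Ccr2 at −0.0033 and Cx3cr1 at −0.95 (adjusted p = 0.0521). Relative to the median gene there, the changes were −0.18, −0.27, −0.52 and −1.47 for Ccr1, Cxcr4, Ccr2 and Cx3cr1. In TPM, Cxcr4 was at 44.3 and 80.5 in untreated marrow, 65.9 to 75.9 with G-CSF and 96.9 and 107 with both, so its order across groups depends on the scale.

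With ZA alone, no receptor passed the test, and neither did most genes (0.0339% called; 5 by edgeR, 1395 at an unadjusted p under 0.05 and 129 by DESeq2). The log2 changes were −0.21 ± 0.18 for Ccr1, −0.42 ± 0.20 for Ccr2, −0.46 ± 0.27 for Cx3cr1 and −0.57 ± 0.18 for Cxcr4, with adjusted p from 0.435 to 0.732. All 4 had both ZA libraries below both untreated libraries, as did 17.7% of all genes tested.

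Adding ZA to G-CSF was read from the combined libraries against G-CSF alone, where 0.00679% of genes were called. No receptor passed. Cx3cr1 was higher in both combined libraries than in all 3 G-CSF libraries (0.65 ± 0.25, adjusted p = 0.432). Ccr1 (−0.36 ± 0.17, adjusted p = 0.492) and Ccr2 (−0.24 ± 0.19, adjusted p = 0.684) were lower in both combined libraries than in all G-CSF libraries. For Cxcr4 the groups overlapped (0.17 ± 0.17, adjusted p = 0.744). Groups of this size did not overlap for 4569 of the 14737 genes. The interaction term, which asks if the log2 change with both agents differs from the 2 single ones added up, was 1.10 ± 0.37 for Cx3cr1 (adjusted p = 0.335) and 0.74 ± 0.25 for Cxcr4 (adjusted p = 0.327). It was −0.16 ± 0.25 for Ccr1 and 0.18 ± 0.27 for Ccr2, and 0.00679% of genes passed. Adding G-CSF to ZA, where 4.33% of genes were called (2.46% lower), left Cx3cr1 as the only receptor of the 4 called, as given above. There Ccr1 was at −0.62 ± 0.18 (adjusted p = 0.103), Ccr2 at −0.67 ± 0.20 (adjusted p = 0.115) and Cxcr4 at 0.13 ± 0.18 (adjusted p = 0.790).

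**Figure D2:**
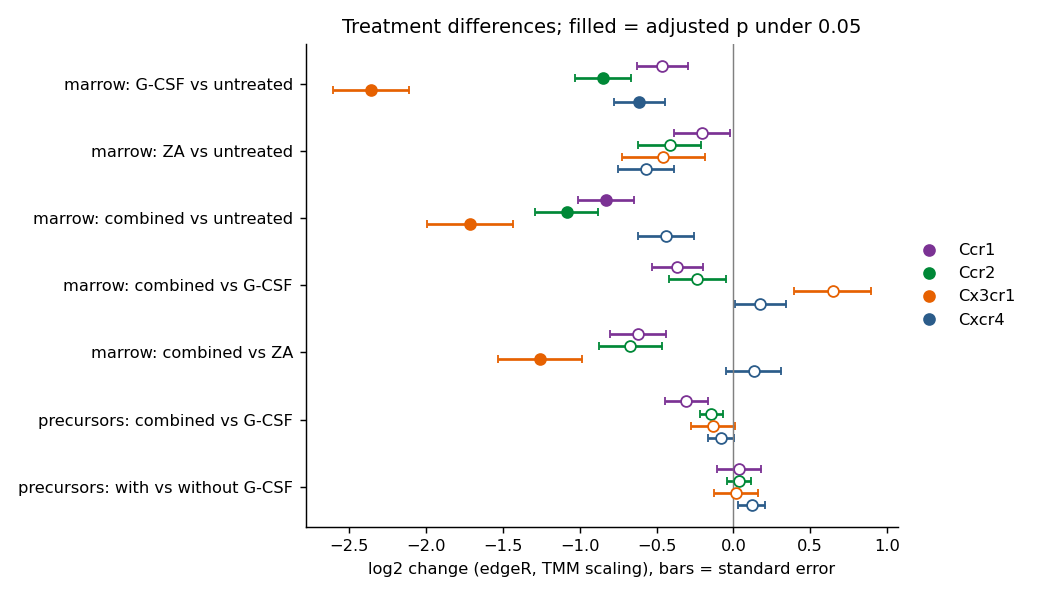
Log2 changes of the receptors (x axis, edgeR with TMM scaling) in each treatment comparison (y axis); bars are standard errors and filled points had an adjusted p under 0.05. Filled points occur in whole marrow with G-CSF or the combination, and the precursor changes lie between −0.31 and 0.12.

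Monocyte marker RNA differed with these groups. The summed level of 14 monocyte and macrophage markers was 7084 to 7863 CPM in untreated marrow, 5511 to 6847 with ZA, 4088 to 5667 with G-CSF and 3544 to 3853 with both. With G-CSF 4 of the 14 were called lower and 0 higher, where 6.91% of all genes were lower, and 3 had positive changes. No library had any of the 14 at 0, and the part of these cells in the receptor changes was not tested. The sum of 8 erythroid markers moved as well, from 172299 to 242829 CPM in untreated marrow to 50406 to 52294 with both. Other sums that separated untreated from G-CSF marrow were those of 8 dendritic markers (419 to 436 CPM against 216 to 255), 6 megakaryocyte markers (134 to 373 against 1164 to 1610), 10 stromal markers, Cxcl12 among them (189 to 232 against 489 to 623) and 9 T and NK markers (75.6 to 83.3 against 141 to 168). The T and NK genes did not move together, and their median log2 change with G-CSF was −0.16. Of the 9, 4 were called higher and 4 lower, where 4.93% of all genes were higher and 6.91% lower. Neutrophil markers, 12 genes, summed to 32901 to 36199 CPM in untreated marrow and 38809 to 38983 with ZA. They summed to 26961 to 38076 CPM with G-CSF and 21874 to 22243 with both. Receptor levels were then set against Csf1r, a marker of the monocyte lineage that was itself lower with G-CSF (−0.63 ± 0.16, adjusted p = 0.0313). In the same library, Ccr2 was 1.40 and 1.43 times Csf1r in untreated marrow, 1.06 to 1.46 with G-CSF, 1.02 and 1.33 with ZA and 1.01 and 1.09 with both. The ratio of Cx3cr1 to Csf1r was 0.286 and 0.334 in untreated, 0.222 and 0.285 in ZA, 0.0834 to 0.112 in G-CSF and 0.127 and 0.174 in combined marrow. Ccr1 was 0.632 and 0.809 times Csf1r in untreated marrow and 0.645 to 0.917 with G-CSF, and Cxcr4 2.01 and 3.33 against 2.43 to 2.74. The G-CSF and untreated libraries were apart in the ratio of Cx3cr1 and overlapped in the other 3. For Ccr2 the overlap came from G-CSF replicate 2 (1.46), with replicates 1 and 3 at 1.13 and 1.06. The share of all genes whose ratio to Csf1r separates these groups was not counted, so this does not set Cx3cr1 apart. These ratios were chosen after their values were seen and were given no test.

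Gene lists of the 2 main monocyte states were read beside the receptors. Of 13 classical monocyte genes, 4 were lower and 0 higher with G-CSF, where 6.91% of all genes were lower, with a median log2 change of −0.46 (−0.22 relative to all genes on the TPM scale, where the median itself was 0.30) against 0.01 for all genes. Ly6c2, an antigen of inflammatory monocytes with near-identical neighbours, fell by 3.12 ± 0.28 (adjusted p = 0.00021), the chitinase-like Chil3 by 1.87 ± 0.20 (adjusted p = 0.000489) and the monocyte fate factor Irf8 by 1.40 ± 0.23 (adjusted p = 0.00528). Of 12 patrolling monocyte genes, 3 were lower and 1 higher (11.8% of all genes called), with a median of −0.58 (0.16 on the TPM scale). The scavenger receptor Cd36 fell by 1.77 ± 0.16 (adjusted p = 0.000262), Nr4a1, the factor that patrolling monocytes need, by 1.07 ± 0.25 (adjusted p = 0.0261) and the Fc receptor Fcgr4 by 0.85 ± 0.24 (adjusted p = 0.0486). The myeloid factor Cebpb went the other way, higher by 1.01 ± 0.25 (adjusted p = 0.0297). With both agents 5 of 13 and 3 of 12 were lower and none higher, against 4.55% lower of all genes. They were led by Ly6c2 (−4.61 ± 0.35), Chil3 (−2.13 ± 0.23) and Irf8 (−1.20 ± 0.25) in the first list and were Fcgr4 (−1.89 ± 0.28), Cd36 (−1.35 ± 0.18) and Nr4a1 (−1.30 ± 0.28) in the second. No gene of these lists passed with ZA alone or between the combination and G-CSF.

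Precursors were set against whole marrow within run 1, over the treatments present in both (5 precursor and 3 marrow libraries, with treatment as a term), to ask where the receptors sit. Ccr2, Cx3cr1 and Cxcr4 were higher in the sorted cells and Ccr1 was lower. All 4 were called, where 43.8% of 17208 genes were (20.4% higher and 23.3% lower). These were 3513 higher and 4018 lower genes, and 9272 and 2081 on the TPM scale, where all 4 receptors kept their directions and calls. Ccr2 had 792 to 1022 CPM in the 8 precursor libraries (median 889) and 235, 138 and 134 in untreated, ZA and G-CSF marrow. It was 5.62-fold higher in precursors (log2 change 2.49 ± 0.19, adjusted p = 7.4e-05). Cx3cr1 had 118 to 174 CPM (median 145) against 56.5, 30.7 and 10.5, a 5.91-fold difference (2.56 ± 0.48, adjusted p = 0.00483).

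Ccr1 went the other way, with 24.5 to 40.1 CPM in precursors (median 29.3) and 105, 91.4 and 85.1 in untreated, ZA and G-CSF marrow. It was 2.97-fold lower in precursors (−1.57 ± 0.15, adjusted p = 0.000211). Cxcr4 had 367 to 450 CPM in precursors (median 390) against 330, 269 and 244, and its difference was 1.42-fold (0.51 ± 0.15, adjusted p = 0.0256). For each of the 4 receptors the 8 precursor libraries did not overlap the 3 of marrow, as for 42.0% of all genes. The Cxcr4 call was lost without the G-CSF marrow library (0.31, adjusted p = 0.137), the ZA marrow library (adjusted p = 0.0619) or the ZA precursor library (adjusted p = 0.0536), and without the G-CSF libraries of both tissues (0.28, adjusted p = 0.307). The other 3 receptors were called in every fit that left out 1 library, but with the replicate number as a block Cx3cr1 (2.65) and Cxcr4 (0.35) were not called. Between run 2 libraries of the same labels no gene was called and the differences were 0.43, −0.47, −0.64 and 0.01 for Ccr1, Ccr2, Cx3cr1 and Cxcr4.

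**Figure D3:**
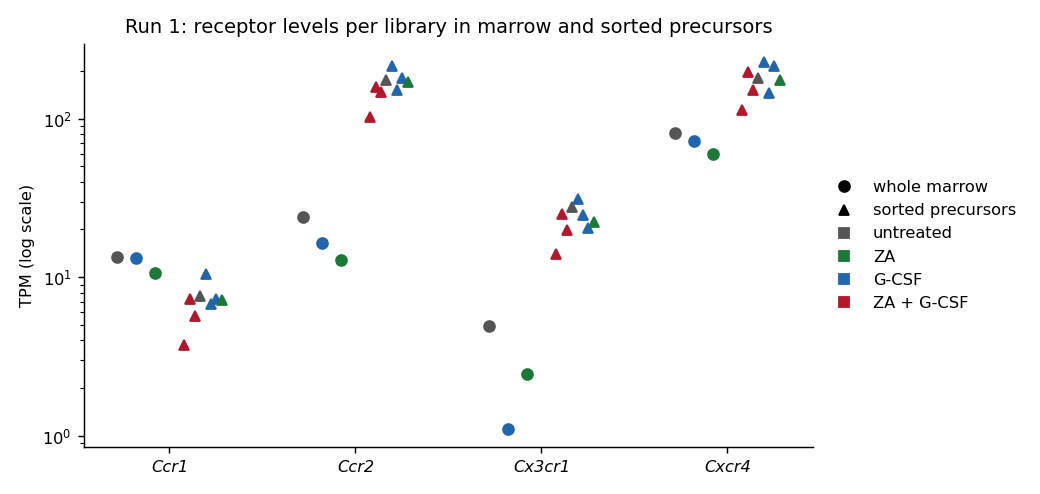
TPM of each receptor (y axis, log scale) in the 3 whole marrow libraries (circles) and 8 precursor libraries (triangles) of run 1, coloured by treatment. Ccr2 lies between 102 and 213 TPM in precursors and between 12.8 and 23.8 in marrow, and Ccr1 between 3.72 and 10.5 against 10.7 and 13.5.

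The cell types that differ between the 2 sources were read from their markers. The sum of 12 neutrophil markers was 42948 to 48757 CPM in run 1 marrow and 4498 to 5819 in precursors, that of 8 erythroid markers 118274 to 221312 against 202 to 3596, and that of 9 B lineage markers 977 to 1245 against 25.3 to 58.7. Stromal markers summed to 238 to 619 CPM in marrow and 9.02 to 20.6 in precursors. The part of these cells in the receptor differences was not tested. Relative to Csf1r in the same library, Ccr2 was 1.86 to 2.20 in precursors and 0.998 to 1.43 in run 1 marrow. Ccr1 was 0.0536 to 0.0845 against 0.625 to 0.907, and Cxcr4 0.841 to 1.08 against 1.94 to 2.60. Per unit of Csf1r, then, Ccr2 was higher in the sorted cells and Ccr1 and Cxcr4 were lower. Csf1r encodes the antigen of the sort, so a gene raised less than Csf1r has a lower ratio in precursors. Cxcr4 is such a gene, since its CPM was higher in precursors than in marrow. The share of all genes with ratios apart was not counted, and the ratios were given no test. The ratio of Cx3cr1 to Csf1r overlapped, with 0.287 to 0.407 in precursors and 0.112 to 0.335 in marrow.

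Other chemokine receptors were lower in the sorted cells. Of 20 such genes present, 14 could be tested, and 9 were lower and 0 higher (23.3% of all genes were lower), with a median log2 change of −3.40 against 0.06 for all genes. All 14 had negative changes, 12 of 14 on the TPM scale. The decoy receptor Ackr1 was at −7.10 ± 0.31 (adjusted p = 6.37e-06), the eosinophil receptor Ccr3 at −7.06 ± 0.52 (adjusted p = 5.71e-05) and the B cell follicle receptor Cxcr5 at −6.27 ± 0.51 (adjusted p = 9.11e-05). Ccr3, which lies between Ccr1 and Ccr2 on the chromosome, had 0 to 0.567 CPM in precursors and 20.5 to 46.7 in run 1 marrow. Ccr1, Ccr3 and Ccr2, neighbours in the cluster, thus had different contrasts between the 2 sources. In whole marrow with G-CSF, 4 of 12 other receptors tested were lower and 0 higher, where 6.91% of all genes were lower (median −0.77, and 0.03 on the TPM scale). They were led by Cxcr6 (−3.45 ± 0.74), Ccr9 (−1.34 ± 0.38) and Ccr3 (−1.24 ± 0.28), and with both agents Cxcr6, Ccr9 and Ccr3 were lower.

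**Figure D4:**
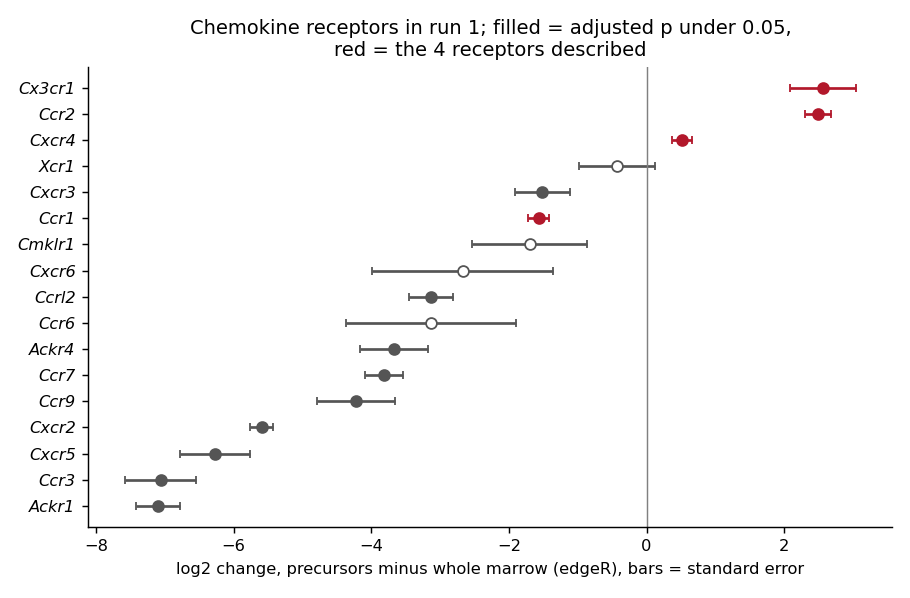
Log2 change between run 1 precursors and whole marrow (x axis, positive is higher in precursors; bars are standard errors) of 17 of the 18 chemokine receptors tested (y axis); filled points had an adjusted p under 0.05. Cx3cr1, Ccr2 and Cxcr4 are right of 0, and Ccr1 and the 13 other receptors shown are left of it.

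Within precursors, treatment was compared in 2 ways, and no receptor passed in either. The combination against G-CSF alone (3 libraries each, 0% of 18779 genes called) gave −0.31 ± 0.14 for Ccr1 (adjusted p = 0.723), −0.14 ± 0.08 for Ccr2, −0.13 ± 0.14 for Cx3cr1 and −0.08 ± 0.09 for Cxcr4 (adjusted p = 0.750, 0.871 and 0.868). Ranges of the groups overlapped for all 4. In that comparison 1306 genes had an unadjusted p under 0.05, none of the 4 among them, and DESeq2 called 91 genes. The 6 libraries with G-CSF against the 2 without (0% called by edgeR, 682 at an unadjusted p under 0.05, 23 by DESeq2) gave 0.03 ± 0.14 for Ccr1, 0.03 ± 0.08 for Ccr2, 0.02 ± 0.14 for Cx3cr1 and 0.12 ± 0.09 for Cxcr4. All had adjusted p = 1.00, and the untreated and ZA groups, with 1 library each, were assumed to vary like the others. On the TPM scale these 4 values were negative, from −0.18 to −0.07, where the median of all genes was −0.11. Ccr2 had 875 CPM in the untreated precursor library, 878 with ZA, 1022, 915 and 899 with G-CSF and 851, 792 and 922 with both. Cx3cr1 had 161 CPM in the untreated precursor library, 133 with ZA, 174, 174 and 118 with G-CSF and 135, 146 and 144 with both. The single untreated library lay inside the range of the 6 libraries with G-CSF for both receptors. The G-CSF difference of Cx3cr1 in run 1 marrow was set against that in precursors by an interaction term added after the data were seen. Each difference was G-CSF against the mean of the untreated and ZA groups. Cx3cr1 passed, at −2.07 ± 0.31 (adjusted p = 0.0209), and the other 3 did not, where 3.0% of 19962 genes were called and 1.96% were lower. The call was lost on the TPM scale (−1.11, adjusted p = 0.432) and with the replicate number as a block (−2.02). Its marrow side is 1 library per treatment, the same replicate 2 libraries as in the marrow comparison above. It is therefore no separate evidence of the fall there. Genetic background and tissue cannot be told apart in this term, since the G-CSF marrow library lacked Vill and the G-CSF precursors had it.

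The ligands were measured in the same libraries. Cxcl12, the ligand of Cxcr4, had 121 and 94.9 CPM in untreated marrow, 310, 316 and 393 with G-CSF, 74.6 and 460 with ZA and 354 and 310 with both. The G-CSF and combined libraries were all above the untreated ones, but the ZA libraries lay at the extremes, and the change with G-CSF was 1.66 ± 0.64 (adjusted p = 0.137). The sum of 9 other stromal markers was 94.4 to 111 CPM in untreated marrow, 173 to 229 with G-CSF, 137 to 202 with both and 120 and 222 in the same ZA libraries. With Cxcl12 counted, 9 of 10 stromal markers had positive changes with G-CSF and 1 was called, the collagen Col1a2 (1.48 ± 0.38, adjusted p = 0.0389). The part of stromal RNA in the Cxcl12 levels was not tested. In sorted cells Cxcl12 was at 0.363 to 2.49 CPM, a log2 change of −7.81 ± 0.76 against marrow (adjusted p = 0.000361). Of 8 ligands tested, 1 was higher and 1 lower with G-CSF, where 11.8% of all genes were called: Mif, a cytokine that also binds Cxcr4, rose by 0.87 ± 0.24 (adjusted p = 0.0449), and Ccl9, a ligand of Ccr1, fell by 1.21 ± 0.19 (adjusted p = 0.0052). With both agents Ccl9 fell by 1.86 ± 0.22 (adjusted p = 0.00159) and Ccl6, also a Ccr1 ligand, by 1.31 ± 0.20 (adjusted p = 0.00555). Between precursors and marrow, Ccl9 was higher by 1.61 ± 0.18 (adjusted p = 0.000455), while 4 of the ligands, led by Cxcl12, Ccl5 (−6.25 ± 0.64) and Ccl8 (−5.83 ± 1.06), were lower, where 23.3% of all genes were (3 higher and 3 lower on the TPM scale). Ccl9 was thus higher in the sorted cells, where Ccr1 was lower. The ligand Ccl2 had 0.0970 to 0.957 CPM in precursors and 0 to 0.628 in run 1 marrow, and Cx3cl1 at most 0.194 and 1.05. The second Cxcl12 receptor, Ackr3, had 0 counts in all 8 precursor libraries. Ccl2, Cx3cl1 and Ackr3 did not pass a test here and were named after their values were seen.

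Genes that act below the receptors carry or end their signal. Of 23 such signalling and desensitisation genes, 2 were lower and 0 higher with G-CSF, a share near that of all genes (6.91% lower, 11.8% called): beta-arrestin 1, Arrb1 (−1.32 ± 0.21, adjusted p = 0.00495), and the G protein regulator Rgs14 (−0.76 ± 0.18, adjusted p = 0.0273). None passed with both agents. Their median was −0.06 with G-CSF, and 21 of 23 were positive on the TPM scale. In precursors against marrow 8 were higher and 5 lower, where 20.4% of all genes were higher and 23.3% lower (17 and 1 on the TPM scale, where the median of all genes was 0.52). The largest rises were in the receptor kinase Grk3 (3.50 ± 0.20, adjusted p = 1.9e-05), the G protein subunit Gng2 (1.20 ± 0.13) and the lipid kinase Pik3cg (0.77 ± 0.18). The largest falls were in beta-arrestin 2, Arrb2 (−1.14 ± 0.13, adjusted p = 0.000451), the GTPase Rac2 (−0.86 ± 0.09) and Arrb1 (−0.80 ± 0.20). Of 13 genes of marrow retention and release, 3 were higher with G-CSF, where 4.93% of all genes were: the neutrophil proteases Ctsg (0.81 ± 0.18, adjusted p = 0.0214) and Elane (0.76 ± 0.17, adjusted p = 0.0189), and the integrin Itgb1 (0.67 ± 0.17, adjusted p = 0.0338). Their median was −0.20, and 0.66 on the TPM scale. In precursors 2 of the 13 were higher, Ctsg (0.90 ± 0.21, adjusted p = 0.0122) among them. Another 5 were lower, and both counts lie near the shares of all genes given above. The lower ones were led by the matrix protease Mmp9 (−8.11 ± 0.60), the adhesion ligand Vcam1 (−6.25 ± 0.40) and the Kit ligand Kitl (−4.87 ± 0.90).

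The genes whose levels went most nearly with each receptor over the 9 whole marrow libraries were ranked by Pearson's r of log2(CPM + 1) among 9940 genes. This is a description over libraries that share their treatment groups. Ccr1 went with Il13ra1 (0.989), Klhl9 (0.988), Prcp (0.982) and Cd53 (0.976). Ccr2 went with Idh1 (0.986), Evi2a (0.981), Sdcbp (0.979) and Rpap2 (0.973). For Cx3cr1 the genes were Aldh3a2 (0.994), Dnah8 (0.991), Tbc1d9 (0.986) and the scavenger receptor Cd36 (0.985). For Cxcr4 the likeness was lower, with Ints12 (0.940), Stxbp3 (0.937), Gfra1 (0.922) and Napa (0.913). No 2 receptors shared a gene among these.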

How the data were processed

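RNA libraries were made with the Ultra RNA kit of NEB and run on an Illumina HiSeq, per the labels. The authors deposited estimated counts and TPM per Ensembl gene. The submitters' processing notes name Salmon, DESeq2 1.16.1 and mm10, and the annotation release is not given in the sources used here. Estimated counts, as deposited, carry no scaling between libraries, and the deposited TPM are per transcript length. Gene symbols and positions were taken from the GENCODE vM21 annotation of GRCm38 (98.9% and 99.0% of identifiers matched). After rounding, counts went into the robust quasi-likelihood test of edgeR 4.0.16 in R 4.3.3 after filterByExpr (minimum count 10, minimum total 15) and TMM scaling, with Benjamini-Hochberg adjusted p under 0.05 over all genes tested. Adjusted p values are of this test unless another is named. Standard errors are the log2 change over the square root of F. Alternatives were DESeq2 1.42.0, RLE scaling, no filter, limma 3.58.1 on log2(TPM + 1), the replicate number as a block, fewer groups and each library left out. The pseudocount of 1 understates changes of low genes. On simulated counts for G-CSF against untreated, 48% of changes of 1 on the log2 scale and 100% of changes of 2 were recovered. For changes of 1 the share was 37% to 53% in the other marrow pairs, and 71% to 85% within precursors and between the sources. It was 15% for the interaction of ZA and G-CSF and 3% for that across tissues (87% and 77% for changes of 2). The simulation gave all genes the same spread and changed only genes with a mean above 10 CPM. Its shares are thus not those for any 1 receptor in these data. Total counts per library set the precision and are given with the report. The 4 receptors are named in every comparison; of each list described, members that passed are named, at most 3 per direction by largest change; the 4 genes with the highest r are named for each receptor, among genes of at least 5 CPM. The receptors and lists were chosen with earlier results of these data known. Some list members are not reported here.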

Additional observations from a re-analysis of the deposited data

Results flagged for a closer look

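In run 1, G-CSF libraries were set against the mean of the untreated and ZA groups. This difference was compared between whole marrow and precursors by an interaction term, chosen after the data were seen. Cx3cr1 passed: its G-CSF difference in marrow minus that in precursors was −2.07 ± 0.31 on the log2 scale (adjusted p = 0.0209 by edgeR, where 3.0% of 19962 genes passed, 206 higher and 392 lower, and 729 and 191 on the TPM scale). On the TPM scale Cx3cr1 itself was at −1.11 and not called (adjusted p = 0.432), nor with the replicate number as a block (−2.02). Marrow had 56.5 CPM of Cx3cr1 untreated, 30.7 with ZA and 10.5 with G-CSF. Precursors had 161 untreated, 133 with ZA and 118 to 174 with G-CSF. Ccr1 (−0.39 ± 0.26, adjusted p = 0.506), Ccr2 (−0.54 ± 0.15, adjusted p = 0.118) and Cxcr4 (−0.45 ± 0.17, adjusted p = 0.213) did not pass. Each marrow group and the untreated and ZA precursor groups had 1 library, assumed to vary like the G-CSF and combined precursors. The marrow libraries are those in which the fall of Cx3cr1 had been seen. Vill had 0 CPM in the G-CSF marrow library and 40.2 to 65.5 in the G-CSF precursors. A difference in genetic background between them cannot be told apart from a difference between tissues.

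In the second run, used only in alternatives, 8 of 15 libraries labelled precursor had Ccr2 below every run 1 precursor (10.3 to 209 TPM over the 15, against 102 to 213). Among the 8, combined replicates 1 and 4 were just under the run 1 range, at 97.3 and 100 TPM. Ly6g was above every run 1 precursor in 9 of the 15, and 2 of 3 libraries labelled marrow had it below every run 1 marrow library. Among the 9, combined replicates 1 and 5 were just over the run 1 precursors (10.6 and 10.9 TPM against at most 10.1).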

How the results depend on the processing

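On the TPM scale these changes turned in sign: Ccr1 0.33 and Cxcr4 0.25 with G-CSF; Ccr1 0.21 and Ccr2 0.034 with ZA; Ccr1 0.33, Ccr2 0.11 and Cxcr4 0.76 with both; Ccr2 0.11 against G-CSF; Ccr1 0.12 and Ccr2 0.075 against ZA. Precursors with against without G-CSF were −0.13, −0.15, −0.18 and −0.072 (Ccr1, Ccr2, Cx3cr1, Cxcr4), and the Ccr1 interaction across tissues 0.0090. Calls lost there were Ccr2 −0.0033 and Cx3cr1 −0.95 with G-CSF, Cx3cr1 −0.40 with both and −0.36 against ZA, and Cx3cr1 −1.11 across tissues, so 0 of 4 receptors passed in these comparisons.

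No pairing by replicate number was seen within 1 source. Same-numbered libraries of different groups had correlations of −0.06 to 0.14 within marrow and −0.05 to −0.03 within precursors. Pairing is not excluded, since the groups are small and the values of the 2 libraries in a marrow group mirror each other. Between the sources pairing could not be checked, since run 1 marrow has 1 library per group. With the replicate block, calls were lost for Cxcr4 with G-CSF (−0.53), Ccr1 with both (−0.70), Cx3cr1 against ZA (−1.12, leaving 0 of 4), Cx3cr1 (2.65) and Cxcr4 (0.35) in precursors against marrow, leaving 2, and Cx3cr1 across tissues (−2.02, leaving 0). Cx3cr1 with against without G-CSF in precursors was −0.018. The block gave the other receptors the same calls.

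With the 2 groups alone, Cxcr4 with G-CSF (−0.59), Ccr1 (−0.79) and Ccr2 (−1.05) with both, leaving 1, and Cx3cr1 against ZA (−1.23), leaving 0, were not called. DESeq2 called Ccr2 across tissues (−0.56), making 2. With both runs' 17 precursor libraries Ccr1 with against without G-CSF was −0.51. Over the alternatives of that comparison the highest values were 0.73 for Ccr2, 0.63 for Cx3cr1 and 0.37 for Cxcr4, and none was called. The run 2 libraries among the 17 were uneven in Ly6g. Without G-CSF, untreated replicate 7 and ZA replicates 5 and 7 had 174 to 189 TPM, and ZA replicates 6 and 8 had 6.62 and 3.22. Those with G-CSF, alone or combined, had 1.18 to 10.9 TPM. In run 2 the precursor to marrow differences were 0.43, −0.47, −0.64 and 0.011 (0 called), and without G-CSF libraries Cxcr4 was at 0.28.

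Leaving out 1 library gave −1.04 to −0.61 for Ccr2 and −0.76 to −0.43 for Cxcr4 with G-CSF (1 to 3 receptors called), −0.87 to −0.79 for Ccr1, −1.28 to −0.85 for Ccr2 and −1.98 to −1.37 for Cx3cr1 with both (0 to 3 called), and −1.50 to −1.06 for Cx3cr1 against ZA (0 to 1). Cxcr4 against ZA was −0.043 to 0.33, the Ccr2 interaction −0.057 to 0.39, Cxcr4 in precursors against marrow 0.31 to 0.67, and with against without G-CSF Ccr1 −0.033 to 0.083 and Cx3cr1 −0.12 to 0.15. Of 584 settings of single receptors, 513 kept direction and call, which includes results that were not called and stayed so. In 44 the direction held and the call was lost, in 26 the direction turned, and in 1 a call was gained. The 44 come only from results called as reported. Counts of called genes ran over these settings from 836 to 3206 with G-CSF (1746 as reported), 0 to 634 with ZA (5), 296 to 6110 with both (1137), 0 to 557 against G-CSF (1), 251 to 1587 against ZA (638), 0 to 746 for the interaction (1), 0 to 91 and 0 to 37 in precursors (0), 0 to 11353 between sources (7531) and 170 to 1250 across tissues (598). Run 2 gave the 0 between sources.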
